A study of Mus musculus with 6 samples.

Results

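Metallothioneins, their regulator Mtf1 and 5 transporters of zinc and related metals were followed in liver RNA-seq of mice with reduced Hnf1aos1, a long noncoding RNA. The 8 genes Mt1, Mt2, Mtf1, Slc39a14, Slc39a4, Slc39a8, Slc30a1 and Slc30a10 were taken by symbol from 40803 genes of the count table. They were chosen by the counts of Mt1 and Mt2, which had the largest rises in this contrast, so the values of these 2 genes are given as a description with no test. All 8 passed the filter on low counts, and 16327 genes were tested in all.

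The libraries came from livers of male C57BL6 mice that were 6 weeks old at injection and were sampled 4 weeks later. The control group, rAAV8-Scramble, and the knockdown group, rAAV8-Hnf1aos1, each held 3 mice, and both received a recombinant adeno-associated virus of serotype 8 through the tail vein. In either vector a U6 promoter drove a short hairpin RNA, with a scrambled sequence in the control and a sequence against Hnf1aos1 in the knockdown, and EGFP served as a reporter. Serotype 8 enters mainly hepatocytes, a U6 promoter is not limited to a cell type, and mice without virus were not analysed here. Counts assigned to genes ran from 14704746 to 16532510 in the scramble libraries and from 18021614 to 19462398 in the knockdown libraries, so the knockdown libraries were deeper. The summed level of 8 hepatocyte markers, among them Alb, was 82824 to 88491 TPM, a unit that corrects read counts for transcript length and library size, in scramble and 78372 to 93964 TPM in knockdown. Hnf1aos1 itself had normalized counts of 512, 491 and 620.3 in scramble and of 278, 258 and 433 in knockdown. Its log2 fold change was -0.74 (SE 0.195), which missed the 0.05 threshold (adjusted p = 0.0625, edgeR quasi-likelihood test), and knockdown replicate 3 had the highest level of its group.

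Metallothioneins are small cysteine-rich proteins that bind zinc and copper, and the liver is a main site of their synthesis. When free zinc rises in a cell, the zinc-finger factor MTF-1 binds metal response elements near the start of Mt1 and Mt2 and raises their transcription, as it does for the zinc exporter gene Slc30a1. Metals, glucocorticoids, IL-6 acting through STAT3 and oxidative stress are each known to raise hepatic metallothionein. Transporters of the Slc39a (ZIP) family bring zinc into the cytosol from outside the cell or from vesicles, and those of the Slc30a (ZnT) family move it in the opposite direction.

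The windows around the RefSeq transcription starts of Mt1, Mt2 and Slc30a1, the textbook targets of MTF-1, are shown as background. Whether MTF-1 acted on them in these livers was not tested. Each window covers 250 bases before the start and 30 bases from it, on the plus strand of GRCm38.p6, and capitals mark matches to TGCACNC or TGCGCNC, the core letters of the metal response element, on either strand. The windows are chr8:94178839-94179118 for Mt1, chr8:94172368-94172647 for Mt2 and chr1:191906531-191906810 for Slc30a1.
Mt1: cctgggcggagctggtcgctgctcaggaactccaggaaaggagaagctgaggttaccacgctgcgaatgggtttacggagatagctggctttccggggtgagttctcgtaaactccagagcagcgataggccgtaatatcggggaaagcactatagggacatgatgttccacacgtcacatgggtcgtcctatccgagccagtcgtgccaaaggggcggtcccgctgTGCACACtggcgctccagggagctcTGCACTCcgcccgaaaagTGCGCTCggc
Mt2: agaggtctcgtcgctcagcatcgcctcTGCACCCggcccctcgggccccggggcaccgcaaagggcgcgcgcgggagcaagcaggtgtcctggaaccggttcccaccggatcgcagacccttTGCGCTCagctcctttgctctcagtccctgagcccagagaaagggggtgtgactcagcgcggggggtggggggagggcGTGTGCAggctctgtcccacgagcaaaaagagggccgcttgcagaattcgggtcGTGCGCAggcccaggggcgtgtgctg
Slc30a1: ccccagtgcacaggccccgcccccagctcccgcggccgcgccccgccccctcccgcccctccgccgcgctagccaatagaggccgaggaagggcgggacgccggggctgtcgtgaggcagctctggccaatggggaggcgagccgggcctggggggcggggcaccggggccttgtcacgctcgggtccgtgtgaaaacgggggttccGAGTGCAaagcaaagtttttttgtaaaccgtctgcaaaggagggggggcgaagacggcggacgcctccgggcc

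The Mt1 window held 3 matches, from 23 to 17 bases before the start, from base 3 to 9 and from base 21 to 27 after it. The Mt2 window held 4 matches, of which the nearest 2 lay from 50 to 44 bases before the start and from base 5 to 11 after it, and Slc30a1 held 1, from 43 to 37 bases before the start on the minus strand. Of 32851 windows of this length, 24.1% held at least 1 match, 1.73% at least 3 and 0.405% at least 4. The window of Mtf1 held 0 matches. That of Slc30a10 held 3, as many as Mt1, with 2 of them overlapping, and the windows of Slc39a8 held 0 and 1. No window was at hand for Slc39a14 or Slc39a4. TGACNNNGC, the core letters of the antioxidant response element, occurred once in the windows of Mt2 and Slc30a1 and in 11.5% of all windows, and overlapped none of the metal response matches. TTCNNNGAA, to which STAT3 binds, was in neither metallothionein window and in 7.83% of all. A match of letters is a description and not a bound site. The annotation also lists a Mt1 start 7 bases before the RefSeq start and a Slc30a1 start 14 bases before it. Later starts, beyond the windows, lie 122 and 152 bases after it for Mt1, 46 and 242 for Mt2 and 475 for Slc30a1. All positions, and the absence of a motif, hold for the RefSeq starts only. The whole Mt2 window lies before the first Mt2 start of the annotation. Which start was used in these livers was not tested.

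Both metallothionein genes lie on the plus strand of chromosome 8 in GRCm38, Mt2 at 94172664 to 94173568 and Mt1 at 94179082 to 94180327, with 5513 bases between them. Mt2 overlaps the antisense gene Gm45774, which is not a row of the count table, and the strand setting of the counting is not given in the sources used here, so reads of the pair cannot be told apart.

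Mt1 had normalized counts of 102, 95.5 and 81.4 in the scramble libraries and of 9475, 7627 and 861 in the knockdown libraries. Every knockdown library lay above every scramble library, but replicates 1 and 2 stood far above replicate 3. The group means were 92.8 ± 10.4 and 5988 ± 4535 (SD, n = 3 each), and the log2 fold change was 6.01 (SE 1.17), the largest positive value of all genes tested. Set against the scramble mean, the separate knockdown libraries were 102-fold, 82.2-fold and 9.28-fold higher. The raw counts behind the scramble values were 99, 87 and 74, so the low group was well above the counting limit.

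Mt2 had normalized counts of 59.5, 51.6 and 33.0 in scramble and of 3689.6, 4251 and 352 in knockdown. The pattern was that of Mt1, with 2 high knockdown libraries and replicate 3 between them and the scramble group. Means were 48.0 ± 13.6 and 2764 ± 2107 (SD, n = 3 each), with a log2 fold change of 5.84 (SE 1.26), next after Mt1 in the order of all genes tested. The knockdown libraries were 76.8-fold, 88.5-fold and 7.34-fold above the scramble mean. Without knockdown replicate 3 the log2 fold changes were 6.52 for Mt1 and 6.36 for Mt2.

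In a whole-liver library, a change in the number of cells of a type and a change in RNA per cell cannot be told apart. On the TPM scale, Mt1 was at 10.4, 9.68 and 8.71 in scramble and at 967, 732 and 83.3 in knockdown, and Mt2 at 13.8, 11.8 and 7.99 against 852, 923 and 77.1. By TPM, Mt1 ranked between 6493 and 7416 of 40895 rows in the scramble libraries, and at 114, 146 and 1137 in the knockdown libraries. Mt2 ranked between 5441 and 7759 in scramble and at 128, 118 and 1226 in knockdown. Both genes thus stood far higher in the order of transcripts in every knockdown liver. The summed TPM of Mt1 and Mt2 was 24.2, 21.5 and 16.7 in scramble and 1819, 1655 and 160.5 in knockdown.

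The highest knockdown library exceeded the lowest 11-fold for Mt1 and 12.1-fold for Mt2, against a median of 1.27-fold over all genes tested, and 30 genes had a wider knockdown spread than Mt1 and 23 than Mt2. Among the scramble libraries the same ratio was 1.248 for Mt1 and 1.80 for Mt2, with a median of 1.24 over all genes. The ratio of Mt1 to Mt2 counts was 1.71, 1.85 and 2.47 in scramble and 2.57, 1.79 and 2.44 in knockdown, so the ratios of the groups overlapped. Knockdown replicate 3, lowest for both metallothioneins, was also the library with the highest Hnf1aos1 count of its group, and the part of the knockdown's extent in this difference was not tested.

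**Figure D1:**
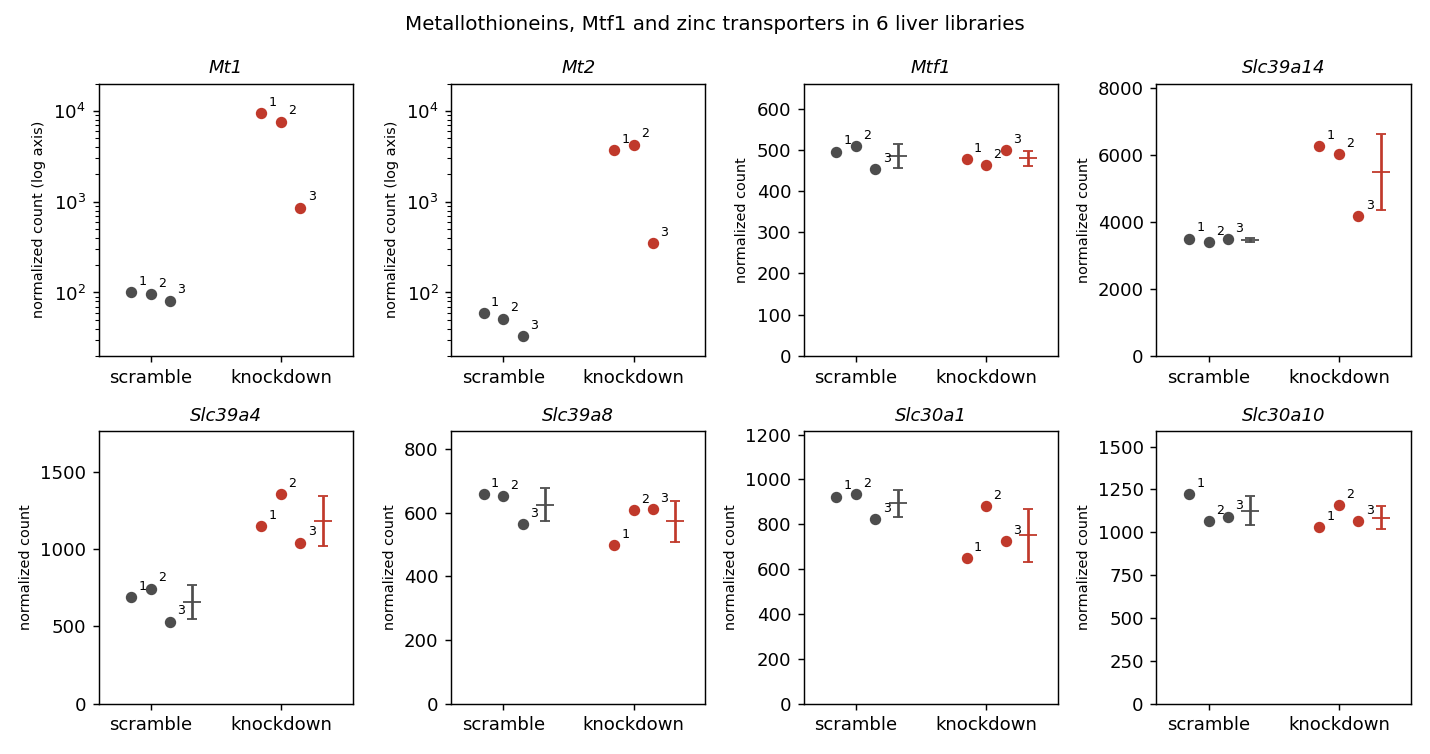
Normalized counts of the 8 genes in each library, with scramble and knockdown on the x axis, numbered points for single mice and, except for Mt1 and Mt2, bars for the mean and SD (n = 3 each). The y axes of Mt1 and Mt2 are logarithmic and the others start at 0. Mt1, Mt2, Slc39a14 and Slc39a4 have knockdown points that all lie above the scramble points, and the third knockdown mouse is far below the other two for Mt1 and Mt2.

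The other metallothionein genes of the mouse cluster gave little signal. Mt3, mainly a brain metallothionein that lies 18517 bases before Mt2, had 0 counts in all 6 libraries, which in the deepest library allows up to 3 counts, and Mt4, mainly expressed in stratified epithelia, was too low to be tested. Of 10 genes around the cluster on chromosome 8, 7 were tested. By edgeR 0 were called (2 at an unadjusted p under 0.05, 0 by DESeq2), beside 6.32% of all genes tested. The median log2 fold change of the 7 was 0.14. The member with the largest change was Herpud1, a component of endoplasmic reticulum protein degradation, with 5955, 4039 and 5111 normalized counts in scramble and 1673, 2928 and 4221 in knockdown (log2 fold change -0.78, SE 0.371, adjusted p = 0.291), and its groups overlapped.

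Mtf1, the gene of the zinc-sensing factor (chromosome 4, 124802104 to 124849800, plus strand, GRCm38), had 496, 508 and 453 normalized counts in scramble and 477, 463 and 499 in knockdown. The groups overlapped, with means of 486 ± 28.9 and 479.6 ± 18.3 (SD, n = 3 each). Its log2 fold change was -0.02 with a 95% interval of -0.22 to 0.19, and it was not called (adjusted p = 0.929, edgeR). Mtf1 overlaps 1110065P20Rik on the opposite strand, and without a known strand setting their reads cannot be told apart.

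Of the 6 genes other than Mt1 and Mt2, 2 were called at an adjusted p under 0.05 by edgeR's quasi-likelihood test, and both were higher in knockdown. Over all genes tested, 3.09% were called higher and 3.23% lower, 6.32% in all. DESeq2 also called 2 of the 6, both higher, beside 3.91% of all genes called higher, 3.67% lower and 7.59% in either direction. Without scramble replicate 3 edgeR called 0 of the 6, with 3 below 0.05 before adjustment. Both called genes encode ZIP importers. Among all 8 genes, 4 had knockdown values wholly above the scramble values, beside 15.2% of all genes tested, and 2 of those 4 are the metallothioneins that the choice was based on.

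Slc39a4 (chromosome 15, 76612383 to 76617384, minus strand) encodes ZIP4, known best as the importer of dietary zinc in the intestine. Its normalized counts were 692, 744 and 531 in scramble and 1148, 1355 and 1042 in knockdown, so all 3 knockdown livers were higher. The means were 656 ± 111 and 1182 ± 159 (SD, n = 3 each), a log2 fold change of 0.85 (SE 0.138, 95% interval 0.54 to 1.15, adjusted p = 0.00933, edgeR). Without scramble replicate 3, the lowest library, the log2 fold change was 0.71 and the adjusted p 0.0506. Summed markers of intestine and pancreas were at 44.6 to 80.02 TPM in scramble and 43.7 to 57.1 TPM in knockdown. Of these 6 markers Vil1, Prss1 and Cpa1 were too low to be tested, and Prss1 had 0 counts in every library. The part of the markers in the Slc39a4 values was not tested.

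Slc39a14 (chromosome 14, 70303469 to 70351425, minus strand) encodes ZIP14, which carries zinc, iron and manganese into hepatocytes and is known as an importer that rises in acute inflammation. It had 3502, 3397 and 3479.8 normalized counts in scramble and 6256, 6030.4 and 4178 in knockdown. The knockdown libraries were 1.81-fold, 1.74-fold and 1.21-fold above the scramble mean, with no overlap with scramble, and replicate 3 was again the lowest. The means were 3459.6 ± 55.1 and 5488 ± 1140.1 (SD, n = 3 each), and the log2 fold change was 0.67 (SE 0.139, 95% interval 0.36 to 0.97, adjusted p = 0.0231, edgeR). The call held without knockdown replicate 3 (log2 fold change 0.83, adjusted p = 0.000161). It was lost without each of the other libraries, with an adjusted p of 0.0606 without scramble replicate 1, 0.0844 without scramble replicate 2, 0.127 without scramble replicate 3, 0.0527 without knockdown replicate 1 and 0.0808 without knockdown replicate 2.

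The remaining importer, Slc39a8 (chromosome 3, 135825279 to 135888572, plus strand), encodes ZIP8, which carries manganese and zinc. Its normalized counts were 658, 651 and 564 in scramble and 498, 607 and 611 in knockdown. The groups overlapped, and the log2 fold change was -0.13 (95% interval -0.36 to 0.11, adjusted p = 0.523, edgeR).

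Slc30a1 (chromosome 1, 191906767 to 191913247, plus strand) encodes ZnT1, the exporter of zinc across the plasma membrane. Its normalized counts were 923, 934 and 824 in scramble and 650.4, 882 and 724 in knockdown, with means of 894 ± 60.8 and 752 ± 118 (SD, n = 3 each). The groups overlapped and Slc30a1 was not called (log2 fold change -0.25, SE 0.116, adjusted p = 0.222, edgeR). The 95% interval, from -0.50 to 0.0052, holds no rise of the size seen for Slc39a14 or Slc39a4. No knockdown library lay above the scramble range of Slc30a1. With spike-in scaling, which moved the median over the genes tested to 0.20, its log2 fold change was -0.049 (adjusted p = 0.809, edgeR). Reads of an antisense neighbour, 1700034H15Rik, were at most 13 in any library.

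Slc30a10 (chromosome 1, 185454848 to 185468762, plus strand) encodes the ZnT10 transporter, which exports manganese. It had 1222, 1066 and 1091 normalized counts in scramble and 1031, 1160.3 and 1064 in knockdown. The groups overlapped, and the log2 fold change was -0.05 (95% interval -0.26 to 0.15, adjusted p = 0.773, edgeR).

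Compared by TPM in the scramble livers, Slc39a14 had the highest mean of the 8 genes, 44.1 TPM, followed by Slc39a4 with 30.9, Slc30a10 with 25.1, Slc30a1 with 21.7, Mt2 with 11.2, Slc39a8 with 10.1, Mt1 with 9.60 and Mtf1 with 8.29 TPM. The libraries of Slc39a4 and Slc30a10 overlapped, as did those of Mt2, Slc39a8 and Mt1, and those of Mt2 and Mtf1. These genes were thus not separated beyond their spread. In the knockdown livers Mt2 and Mt1 had the highest means, 617 and 594 TPM, and overlapped each other. Slc39a14 with 66.5 and Slc39a4 with 53.0 TPM followed, and Slc30a10, Slc30a1, Slc39a8 and Mtf1 had 23.0, 17.3, 8.79 and 7.77 TPM. There the libraries of Slc39a14 and Slc39a4 overlapped, as did those of Slc39a8 and Mtf1. Mt2 also overlapped Slc39a14, with a lowest library of 77.1 TPM against a highest of 78.6 TPM.

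The 2 transporter families were then counted as a whole. Of 24 Slc39a and Slc30a genes 19 were tested. By edgeR 5 were called higher and 0 lower, beside 3.09% and 3.23% of all genes tested. DESeq2 called 5, all higher, beside 3.91% of all genes. At an unadjusted p under 0.05 there were 7, and the share of all genes was not counted. The median log2 fold change of the 19 genes was 0.15, beside -0.0004 over all genes tested, and 9 of the 19 had knockdown values wholly above scramble against 0 wholly below, beside 15.2% and 13.7% of all genes tested. These values include Slc39a14 and Slc39a4.

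Outside the 8 genes, 3 of the tested transporters were called. Slc30a5, which loads zinc into the early secretory pathway, had 595, 577 and 558 normalized counts in scramble and 929.8, 964 and 778 in knockdown (log2 fold change 0.63, SE 0.10, adjusted p = 0.00766, edgeR). Slc30a4, a vesicular zinc transporter, had 382, 322 and 343 against 526, 462 and 441 (log2 fold change 0.45, SE 0.110, adjusted p = 0.0377). Slc39a7, which releases zinc from the endoplasmic reticulum, had 650.5, 729 and 677 against 969, 867 and 860.4 (log2 fold change 0.39, SE 0.0916, adjusted p = 0.0326). The 5 tested ZnT genes outside the 8 had knockdown values wholly above scramble, as did 15.2% of all genes tested, but 2 of them were called, and the log2 fold changes of Slc30a7 and Slc30a9 were 0.15 (adjusted p = 0.293) and 0.18 (adjusted p = 0.240, edgeR).

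Summed over the Slc39a family, expression was 228.7 to 242 TPM in scramble and 262 to 324 TPM in knockdown, and over the Slc30a family 131.5 to 139.6 TPM and 136.3 to 153 TPM. The family count depended on single libraries. It was 3 without scramble replicate 1, 2 without scramble replicate 2, 0 without scramble replicate 3 (edgeR, with 7 genes below 0.05 before adjustment), 2 without knockdown replicate 1, 2 without knockdown replicate 2 and 6 without knockdown replicate 3. The share of all genes called in these fits was not counted, so whether the dependence is particular to these genes was not tested.

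**Figure D2:**
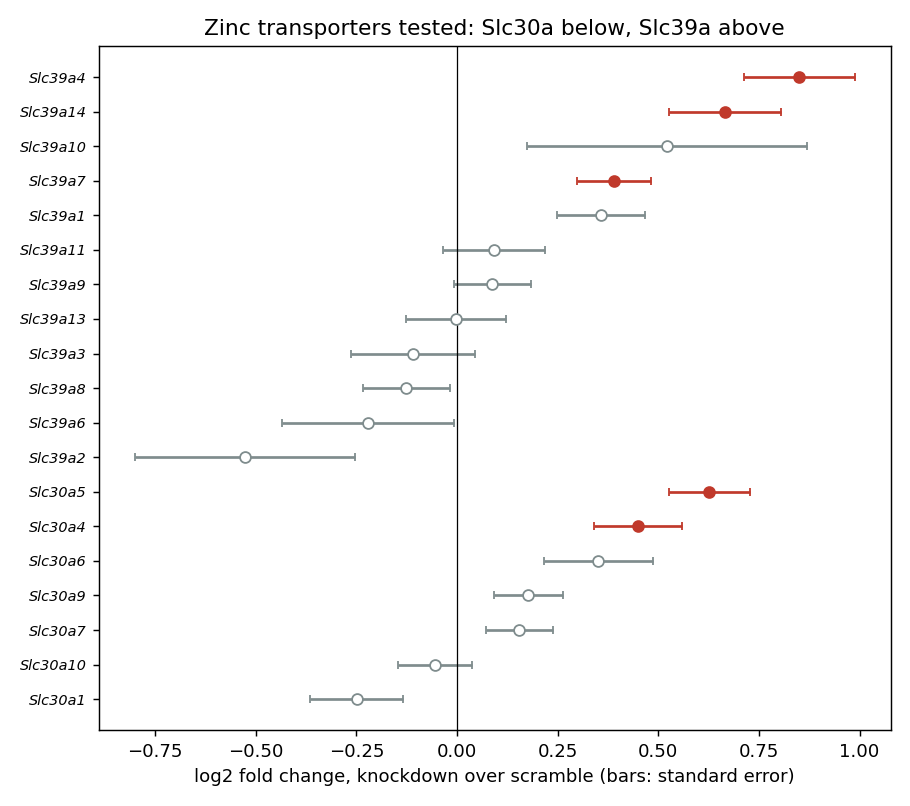
Log2 fold change of knockdown over scramble on the x axis for the 19 zinc transporter genes tested, Slc30a genes below and Slc39a genes above, with bars for the standard error of edgeR's fit and filled red points for called genes. Values run from -0.53 for Slc39a2 to 0.85 for Slc39a4, and the 5 called genes are all to the right of 0.

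Other genes tied to MTF-1 and to zinc were read beside the 8. The 6 further genes known as MTF-1 targets were Slc39a10, Selenow, Csrp1, Ndrg1, Gclc and Hamp. Beside 3.09% of all genes tested called higher and 3.23% lower, 0 of them were called higher and 1 lower. This was Ndrg1, a stress-responsive gene that MTF-1 can act on, with 251, 265 and 300.2 normalized counts in scramble and 155, 148 and 178 in knockdown (log2 fold change -0.76, SE 0.127, adjusted p = 0.00903, edgeR). All 3 knockdown livers were lower. The median of the 6 genes was 0.14, and the highest value was 0.52, for Slc39a10, which was not called and is also in the transporter family count. Whether MTF-1 raises or lowers each gene was not taken into account, so the count and median do not measure its activity.

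Of 6 plasma proteins that carry zinc, 2 were called higher by edgeR and 1 by DESeq2, beside 3.09% and 3.91% of all genes. Pzp, a protease inhibitor of the alpha-2-macroglobulin family, had 104563, 99054 and 91286 normalized counts in scramble and 126526, 144708 and 132333 in knockdown (log2 fold change 0.45, SE 0.115, adjusted p = 0.0420, edgeR). The other, A2m, had only 3, 1 and 2 raw counts in scramble and 11, 19 and 14 in knockdown, so it passed the filter on low counts only through the group in which it was high, and its call carries no weight. Of 12 liver enzymes that hold zinc, 0 were called by edgeR and 2 by DESeq2, beside 6.32% and 7.59% of all genes. At an unadjusted p under 0.05 there were 5 (edgeR), and the share of all genes was not counted. The median of the 12 was -0.14. The largest change was in Car3, a carbonic anhydrase, with 30650.5, 51847 and 34103 normalized counts in scramble and 24923, 25408 and 29014 in knockdown (log2 fold change -0.56, SE 0.184, adjusted p = 0.104).

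Copper and manganese genes were counted because metallothioneins bind copper and several of the transporters carry manganese. Of 13 copper genes 1 was called by edgeR and 2 by DESeq2, beside 6.32% and 7.59% of all genes. The gene called by edgeR was Cp, which encodes the copper-carrying plasma ferroxidase ceruloplasmin. It had 18707, 18641 and 17996 normalized counts in scramble and 29032, 29572 and 21719 in knockdown (log2 fold change 0.54, SE 0.128, adjusted p = 0.0336, edgeR), and it was not called when any library but knockdown replicate 3 was left out. Steap4, a metalloreductase gene singled out after its values were seen, had a larger change, with 1606, 1701 and 1637 against 10356, 17992 and 3248. Its groups did not overlap, but the knockdown libraries were far apart, and its log2 fold change of 2.68 (SE 0.691) was not called by edgeR (adjusted p = 0.112) and was called by DESeq2 (adjusted p = 0.00136). The median log2 fold change of the 13 genes was 0.02. Beside the same shares of all genes, 0 of 6 manganese genes were called by edgeR, with 0 at an unadjusted p under 0.05 and 0 by DESeq2. The largest change there was 0.18 (adjusted p = 0.365), for the metal importer gene Slc11a2.

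Inducers of metallothionein other than metals were followed through lists of their known target genes, beside the same 6.32% of all genes tested. Of 18 genes that respond to IL-6 and STAT3 in hepatocytes, 5 were called higher and 0 lower by edgeR (15 at an unadjusted p under 0.05), and their median log2 fold change was 1.06. DESeq2 called 14 of them, all higher, beside 3.91% of all genes called higher. With spike-in scaling edgeR called 9, all higher, and the share of all genes was not counted there. The edgeR count was 3 without scramble replicate 1, 1 without scramble replicate 2, 0 without scramble replicate 3 (11 before adjustment), 3 without knockdown replicate 1, 6 without knockdown replicate 2, of which 1 was lower, and 11 without knockdown replicate 3. For fits without a library the share of all genes called was not counted. The share of all genes at an unadjusted p under 0.05 was not counted in any fit. Socs3, the feedback inhibitor of STAT3, had 57.5, 51.6 and 59.4 normalized counts in scramble and 129.7, 325 and 272 in knockdown (log2 fold change 2.11, SE 0.339, adjusted p = 0.0169, edgeR). Fgb, a fibrinogen chain, had 50485, 44448 and 46264 against 111489.5, 119862 and 73476 (log2 fold change 1.11, SE 0.170, adjusted p = 0.00682).

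The fibrinogen chain gene Fgg, with a log2 fold change of 1.04 (SE 0.175, adjusted p = 0.0106, edgeR), and the oncostatin M receptor gene Osmr, with 0.67 (SE 0.178, adjusted p = 0.0477), were the called genes of this list with the smallest changes. Larger changes that edgeR did not call were those of Saa2 (4.86, SE 1.64), Lcn2 (4.59, SE 1.68) and Saa1 (4.30, SE 1.41), named here after their values were seen. Of the 18 genes 1 had a log2 fold change below 0. In Fgb and Fgg, as in Mt1, Mt2 and Slc39a14, knockdown replicate 3 was the lowest knockdown library, but in Socs3 it was not. The part of the IL-6 and STAT3 genes in the metallothionein values was not tested.

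Of 10 tested genes known to respond to glucocorticoids, 3 were called lower and 0 higher (7 at an unadjusted p under 0.05), with a median log2 fold change of -0.52. Per1, a clock gene that glucocorticoids induce, had 427, 376 and 444 normalized counts in scramble and 127, 77.9 and 153 in knockdown (log2 fold change -1.80, SE 0.206, adjusted p = 0.00294, edgeR). Tsc22d3, which encodes the glucocorticoid-induced leucine zipper protein, had 1838, 1635 and 2062 against 798, 681 and 886 (log2 fold change -1.23, SE 0.119, adjusted p = 0.000806). Tat, tyrosine aminotransferase, had 28789, 26735 and 27094 against 19056, 14807 and 16196 (log2 fold change -0.72, SE 0.116, adjusted p = 0.00766). DESeq2 called 4 of the list, all lower, beside 3.67% of all genes called lower. The part of the glucocorticoid genes in the metallothionein values was not tested.

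Of 9 tested NRF2 and oxidative stress genes 1 was called higher and 1 lower, and the median was 0.22. Osgin1, an oxidative stress induced growth inhibitor gene, had 3174, 2269 and 2984 normalized counts in scramble and 4569.8, 6022 and 4048 in knockdown (log2 fold change 0.80, SE 0.170, adjusted p = 0.0307, edgeR). Nfe2l2, the gene of NRF2 itself, had 2170.0, 1921 and 2047 against 1477, 1486 and 1408 (log2 fold change -0.49, SE 0.0862, adjusted p = 0.0107). Over the 97 tested genes of all these lists outside the 8, transporters and A2m included, 12 were called higher and 5 lower. Over all genes tested, 3.09% were called higher and 3.23% lower. Without scramble replicate 3, however, 2 were called, namely Per1 and Tsc22d3, and without knockdown replicate 3 there were 31. The count was 12 without scramble replicate 1, 8 without scramble replicate 2, 13 without knockdown replicate 1 and 12 without knockdown replicate 2. Shares of all genes called were not counted for these fits.

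**Figure D3:**
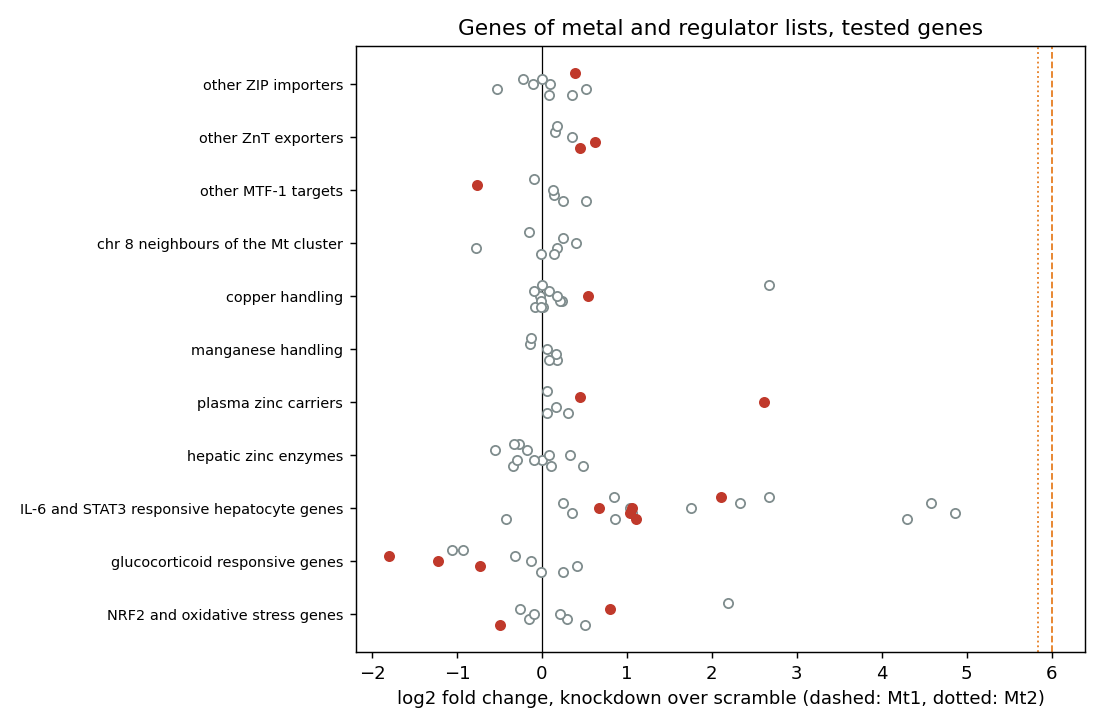
Log2 fold change of knockdown over scramble on the x axis for each tested gene of the metal and regulator lists, 1 row of points per list, filled red where called, with Mt1 drawn as a dashed and Mt2 as a dotted line. The IL-6 and STAT3 row has a median of 1.06 and the glucocorticoid row one of -0.52, and every point lies to the left of both metallothioneins.

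The genes whose pattern over the 6 libraries was most like that of Mt1 were ranked by the root mean square difference of log2 CPM (counts scaled to library size), each gene taken relative to its own scramble mean. Mt2 came first, with a difference of 0.265, and Moxd1 followed with 0.377. Moxd1 encodes a monooxygenase related to dopamine beta-hydroxylase, and its normalized counts were 13.3, 8.78 and 5.50 in scramble and 665, 869 and 76.1 in knockdown. As in both metallothioneins, replicates 1 and 2 were high and replicate 3 was lower. Its log2 fold change of 5.83 (SE 1.37) was next after those of Mt1 and Mt2. The raw counts of Moxd1 in scramble were only 13, 8 and 5. It thus passed the filter on low counts through the knockdown group, in which it was high. Its fold change and rank are a description.

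The remaining genes of this ranking were far less alike. They were Ifit3b at 1.48, Gvin1 at 1.52, Saa2 at 1.53 and Ifit1 at 1.53, of which Ifit3b, Gvin1 and Ifit1 are interferon-inducible and Saa2 is an acute-phase gene. Ifit1 had 532, 247 and 299 normalized counts in scramble and 5306, 5034 and 2307 in knockdown, and Saa2 had 63.6, 69.2 and 147 against 1287, 6671 and 173. Saa2 thus had its highest library in knockdown replicate 2, as did Mt2 and Moxd1, whereas Mt1 was highest in replicate 1. The likeness was computed over all 6 libraries, includes the contrast by which Mt1 was chosen, and carries no test.

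**Figure D4:**
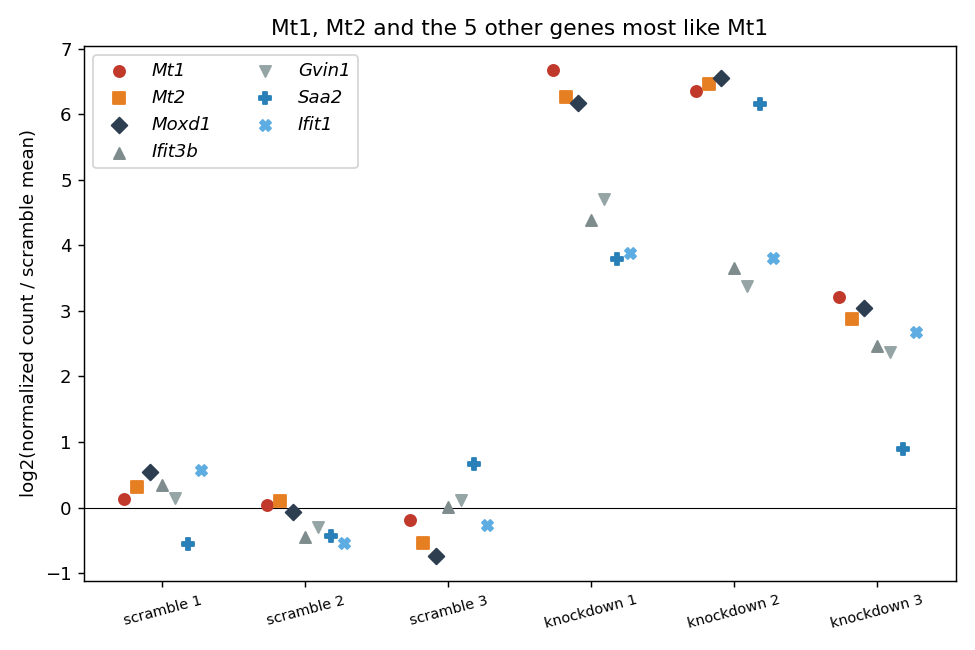
Log2 of the normalized count over the gene's scramble mean on the y axis, for each of the 6 libraries on the x axis, with 1 marker type for Mt1, Mt2 and each of the 5 genes most like Mt1. The markers of Mt1, Mt2 and Moxd1 lie close together in each knockdown library and of these libraries are lowest in replicate 3.

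Markers of other liver cells were summed to show what else differed between the groups. Of 8 macrophage markers 2 were called higher by edgeR, beside 3.09% of all genes tested. All 8 had positive log2 fold changes, and their summed level was 143 to 177 TPM in scramble and 177 to 229 TPM in knockdown. Of 8 neutrophil markers only 1 was high enough to be tested, and 0 were called by edgeR (0 at an unadjusted p under 0.05, 0 by DESeq2). Their sum was 1.96 to 3.15 TPM in scramble and 4.55 to 9.34 TPM in knockdown, with Mpo and Ly6g at 0 counts in every library. Lymphocyte markers summed to 8.51 to 11.6 TPM and 9.08 to 10.3 TPM, endothelial markers to 113 to 118 TPM and 98.6 to 114 TPM, stellate markers to 155 to 209 TPM and 126 to 171 TPM, and cholangiocyte markers to 11.1 to 14.9 TPM and 10.2 to 15.8 TPM. For scale, Mt1 and Mt2 together went from 16.7 to 24.2 TPM in scramble to 1819, 1655 and 160.5 TPM in knockdown. The part of the macrophage and neutrophil differences in the metallothionein and transporter values was not tested.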

How the data were processed

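RNA from livers of 3 rAAV8-Scramble and 3 rAAV8-Hnf1aos1 mice was sequenced by the authors, who trimmed reads, aligned them with STAR and deposited whole-number counts of uniquely mapped exonic reads per gene from featureCounts. The methods describe poly(A) selection and GRCm38, the labels rRNA depletion and GRCm39, and neither the annotation release nor the strand setting is given in the sources used here. The authors also deposited TPM values and normalized counts, a signal scaled by DESeq2, for 16189 genes. The latter were read in an alternative, and the fold changes and p-values beside them were not used.

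Counts were analysed in R 4.3.3 with edgeR 4.0.16 (TMM, filterByExpr, quasi-likelihood test with a robust fit), after 92 ERCC spike-in rows, 1.18% to 1.52% of counts, had been left out. Normalized counts in the text are counts scaled by TMM library sizes. P-values were adjusted by Benjamini-Hochberg over all genes tested, and a gene was called at 0.05. Counts at an unadjusted p under 0.05 have no share of all genes beside them, because it was not counted. Standard errors and 95% intervals came from the same fit. With 3 against 3, an exact permutation test cannot go below 0.1. Replicate numbers did not pair the samples. TPM values were used for levels between genes and for marker sums. Promoter windows came from RefSeq GRCm38.p6 and gene coordinates from GENCODE M21 (GRCm38), while the files hold none. Likeness used log2 CPM with a prior count of 2. Genes named were the 8, the called genes of each list or its largest change (of more than 4 called, the 2 largest and 2 smallest), and the 5 most like Mt1 beside Mt2. The genes and lists were chosen with earlier results of these data known. Scripts were tested on simulated data. Alternatives were other scalings, filters, DESeq2 1.42.0, limma 3.58.1 (voom), TPM with a pseudocount of 0.1 or 1, a replicate block and leaving out each library.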

Additional observations from a re-analysis of the deposited data

How the results depend on the processing

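With library sizes from the ERCC spike-ins, which moved the median over the genes tested to 0.20 (log2), the log2 fold changes of Mtf1, Slc39a8 and Slc30a10 turned to 0.18, 0.076 and 0.15, the transporter family count became 9, all higher, and the count over the other lists 41. Library totals alone gave 3 called transporters. DESeq2 called 29 of 106 genes of the other lists, beside 7.59% of all genes. The share of all genes called was counted for the main fit and DESeq2 only. Whether counts under the other settings moved for these genes in particular was not tested. Leaving out 1 library at a time gave 0 to 2 called among the 6 genes other than metallothioneins, 0 to 6 transporters and 2 to 31 genes of the other lists. The log2 fold change then ran from -0.071 to 0.011 for Mtf1 and from -0.10 to 0.012 for Slc30a10, and from 5.50 to 6.52 for Mt1 and 5.39 to 6.36 for Mt2. The groups' replicate numbers share only a number, with correlations of -0.02, 0.02 and 0.0032 between deviations, and a fit with the number as a block called 2 of the 6 genes, 4 transporters and 14 genes of the other lists. Of log2 TPM, voom, spike-in and block values, the lowest for Mt1 was 5.21 and for Mt2 5.05. In both groups mice differed beyond counting error (chi-square per gene 7.80 to 15.5 between scramble and 14.99 to 32.4 between knockdown libraries).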
